A study of Mus musculus with 5 samples.

Results

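The collagen genes of mouse interscapular brown adipose tissue (iBAT) were followed across cell types in single-nuclei RNA sequencing. All genes whose symbol is Col, a number, a and a number were taken, which gave 44 symbols among the 32285 genes of the count matrices, and 42 of them reached 20 unique molecular identifiers (UMIs, each a tag on 1 captured RNA molecule) in at least 1 matrix. The 2 below that limit in both matrices were Col2a1 and Col9a2. It was reached by 36 collagen genes in the 3-month matrix and 42 in the aging matrix, with 168717 and 177915 collagen UMIs.

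The 3-month matrix holds nuclei of a littermate control (WT) and of a Ucp1-STX4KO mouse sample, both 3 months old. In Ucp1-STX4KO mice (Ucp1-Cre +/-, STX4 fl/fl) the Ucp1 promoter drives Cre in brown adipocytes, so the deletion of syntaxin 4 is directed to these cells and not to stromal, vascular or nerve cells. The aging matrix holds nuclei of C57BL/6J mice of 2, 12 and 24 months. The methods give 4 male mice without their division among the samples, and a preparation of sorted nuclei meant to enrich brown adipocytes. Each condition is 1 library, so there is no replicate and no test. The barcodes carry a suffix that parts the libraries, and the labels tie no suffix to a genotype or an age. Libraries are therefore named by their suffix, and differences between suffixes are differences between libraries only.

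Collagens are proteins of 3 chains wound into a triple helix and secreted into the matrix around cells. Fibrillar collagens (types I, III and V among them) form the banded fibrils of connective tissue, type IV builds the sheet-like network of basement membranes, type VI forms beaded filaments, and the fibril-associated collagens sit on the surface of fibrils. In adipose tissue, fibroblasts and adipocyte progenitors are known as main makers of fibrillar collagen, and each adipocyte and capillary is wrapped in a basement membrane. Many trimers need chains of more than 1 gene, so the gene pairs and triplets below are described together.

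Nuclei were assigned to cell types by gates, each a list of known marker genes without any collagen. A nucleus with at least 3 distinct markers of 1 list, and at least 2 more than of any other list but the adipocyte list, passed that gate, and the adipocyte gate asked for 4 markers and at most 1 of each other list. Of 20307 barcodes in the 3-month matrix 61.0% were gated, and of 30000 in the aging matrix 81.1%. The levels below are CPM, the UMIs of a gene per 1000000 UMIs summed over all nuclei of a gate, with exact Poisson 95% intervals that cover counting error only. The stromal gate (fibroblasts and progenitors) held 1353 and 652 nuclei in the 3-month and the aging matrix, the pericyte gate 1203 and 1360, the endothelial gate 620 and 19794, the Schwann gate 136 and 871, the adipocyte gate 7865 and 589, and the macrophage gate 611 and 56. Smooth muscle nuclei numbered 987 in the aging matrix and 18 in the 3-month matrix, and the 3-month matrix alone gave levels for lymphocytes (161) and skeletal muscle nuclei (415, of which 405 were in suffix 2). A gate with under 30 nuclei gave no level.

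The labels call all samples brown adipocytes. Adipocyte-gated nuclei were 38.7% of the barcodes in the 3-month matrix but 1.96% in the aging matrix, where endothelial nuclei were 66.0%. The pericyte and Schwann gates of the 3-month matrix did not bear out their names. Adipocyte markers summed to 6376 and 6309 CPM there, close to 6974 in the adipocyte gate, against 3131 in the stromal gate. Each collagen call in these gates is therefore also given with shorter marker lists, chosen after these values were seen. These lists drop the markers that adipocyte nuclei also held. They kept 277 pericyte and 54 Schwann nuclei, with adipocyte markers at 2658 and 4664 CPM, so the smaller Schwann gate still held much adipocyte RNA. Without nuclei rich in adipocyte markers, 347 pericyte and 43 Schwann nuclei were left. Adipocyte markers of the aging matrix summed to 223 to 1098 CPM outside the adipocyte gate, against 7627 inside it. Any pair of libraries shared 23 to 45 barcodes.

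The type IV genes lie in the genome as head-to-head pairs, each pair reading outward from a common start region. In GENCODE vM21 (GRCm38), Col4a1 (minus strand, chromosome 8, 11198423 to 11312826) and Col4a2 (plus strand, 11312805 to 11449287) start 21 bases apart and overlap. Col4a3 (plus strand, chromosome 1, 82586921 to 82722059) and Col4a4 (minus strand, 82448423 to 82586849) start 72 bases apart, and Col4a5 (plus strand, chromosome X, 141475385 to 141689234) and Col4a6 (minus strand, 141165403 to 141474076) start 1309 bases apart. Start regions of these pairs are shown because the levels below run in step within a pair or part from it. Each is the window of 250 bases before to 50 after the start site (RefSeq, GRCm38.p6), 5′ to 3′ on the strand of the gene named, with capitals at each GC box, the letters GGGCGG or CCGCCC:
Col4a2 (chr8:11312555-11312854, plus strand): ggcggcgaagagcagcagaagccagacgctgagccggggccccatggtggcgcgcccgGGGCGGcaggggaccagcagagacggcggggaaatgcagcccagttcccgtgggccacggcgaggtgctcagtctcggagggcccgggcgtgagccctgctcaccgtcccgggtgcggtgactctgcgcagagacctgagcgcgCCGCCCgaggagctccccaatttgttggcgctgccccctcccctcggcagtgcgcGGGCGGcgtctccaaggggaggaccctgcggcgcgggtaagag
Col4a4 (chr1:82586800-82587099, minus strand): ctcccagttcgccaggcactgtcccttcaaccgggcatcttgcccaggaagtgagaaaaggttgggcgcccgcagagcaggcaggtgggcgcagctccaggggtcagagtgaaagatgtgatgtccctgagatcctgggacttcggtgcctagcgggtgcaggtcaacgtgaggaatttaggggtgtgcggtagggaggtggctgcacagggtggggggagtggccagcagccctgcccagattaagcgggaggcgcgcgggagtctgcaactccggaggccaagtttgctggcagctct
Col4a5 (chrX:141475169-141475468, plus strand): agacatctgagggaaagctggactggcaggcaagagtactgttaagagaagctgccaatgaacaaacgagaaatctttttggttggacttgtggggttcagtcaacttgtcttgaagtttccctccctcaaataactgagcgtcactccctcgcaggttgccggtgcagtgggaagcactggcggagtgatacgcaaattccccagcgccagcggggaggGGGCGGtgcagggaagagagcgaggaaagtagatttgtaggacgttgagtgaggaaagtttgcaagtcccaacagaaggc
Col4a6 (chrX:141474027-141474326, minus strand): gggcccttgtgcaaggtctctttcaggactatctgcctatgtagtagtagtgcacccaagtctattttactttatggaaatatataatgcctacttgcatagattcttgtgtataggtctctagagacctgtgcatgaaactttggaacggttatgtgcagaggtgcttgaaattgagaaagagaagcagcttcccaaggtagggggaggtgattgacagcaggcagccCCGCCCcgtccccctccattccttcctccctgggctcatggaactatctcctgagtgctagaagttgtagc
The first window also holds the start of Col4a1, and the second that of Col4a3. The Col4a2 window has 3 GC boxes, the Col4a4 window has 0, and the Col4a5 and Col4a6 windows have 1 each. The windows of Col4a2 and Col4a4 are 73.7% and 63.3% G and C and those of Col4a5 and Col4a6 52.7% and 48.3%, against a median of 52.7% over all windows. A GC box on either strand was in 35.7% of 32851 windows of this length and in 62.9% of the 35 collagen genes with a window. The letters CCAAT or ATTGG were in 37.4% of all windows and 34.3% of the collagen windows, and TATAAA or TTTATA in 13.6% and 14.3%.

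More collagen genes were high in stromal nuclei than in any other gate, in the aging matrix Schwann nuclei came next, and pericytes and smooth muscle had a few collagens of their own. A gene was called in a gate where its CPM there, plus 1, was at least 4 times the median CPM of the other gates, plus 1, with at least 10 UMIs and a ratio over 1 in every library that had 30 nuclei of the gate. In the stromal gate 17 of 36 collagen genes were called in the 3-month matrix, where 5.13% of all tested genes were called, and 18 of 42 in the aging matrix, where 4.79% were. The median stromal fold of the collagen genes was 3.83 and 2.81 in the 3-month and the aging matrix, against 1.05 and 1.06 over all genes. In the aging Schwann gate 14 of 42 were called (all genes 3.94%), with a median fold of 2.19 against 0.961.

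The other gates had fewer. Of 42 in the aging matrix, 6 were called in pericytes (all genes 3.55%), 5 in smooth muscle (3.79%), 1 in adipocytes (5.65%) and 0 in endothelium (4.60%) and macrophages (2.17%). Of 36 in the 3-month matrix, 5 were called in the Schwann gate (all genes 0.959%), 3 in skeletal muscle (4.24%), 2 in endothelium (4.24%), 2 in the pericyte gate (1.18%), and 0 in adipocytes (0.0331%), macrophages (6.65%) and lymphocytes (3.93%). With the shorter lists 10 were called in 3-month pericytes and 10 in 3-month Schwann nuclei, and without nuclei rich in adipocyte markers 11 and 9. At least 1 gate called 22 of 36 collagen genes in the 3-month matrix and 27 of 42 in the aging matrix.

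**Figure D1:**
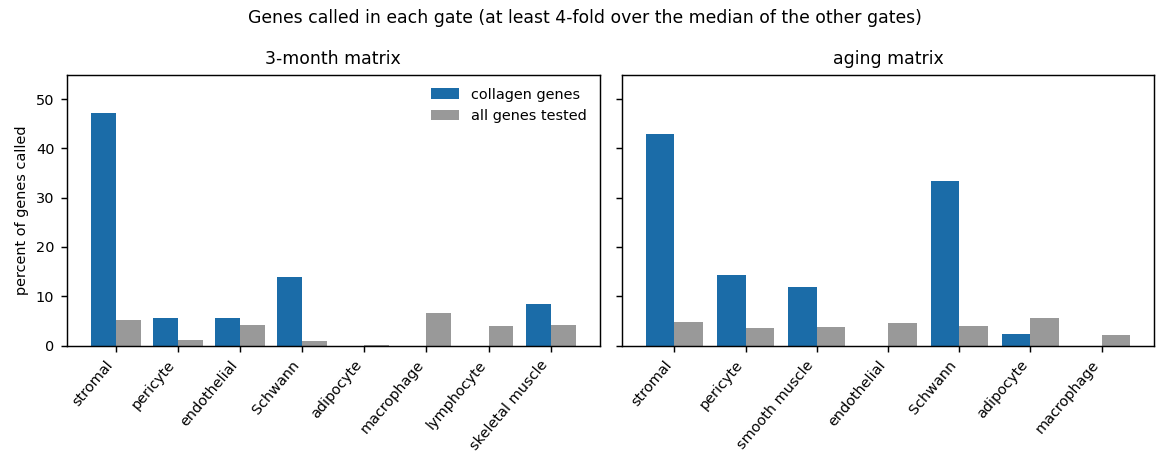
Bars give the percent of genes called in each gate (vertical axis) in the 3-month matrix (left) and the aging matrix (right), for collagen genes (blue) and all tested genes (grey). Collagen genes stand far above all genes in the stromal gate of both matrices and in the Schwann gate of the aging matrix, and at or below them in adipocytes and macrophages.

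**Figure D2:**
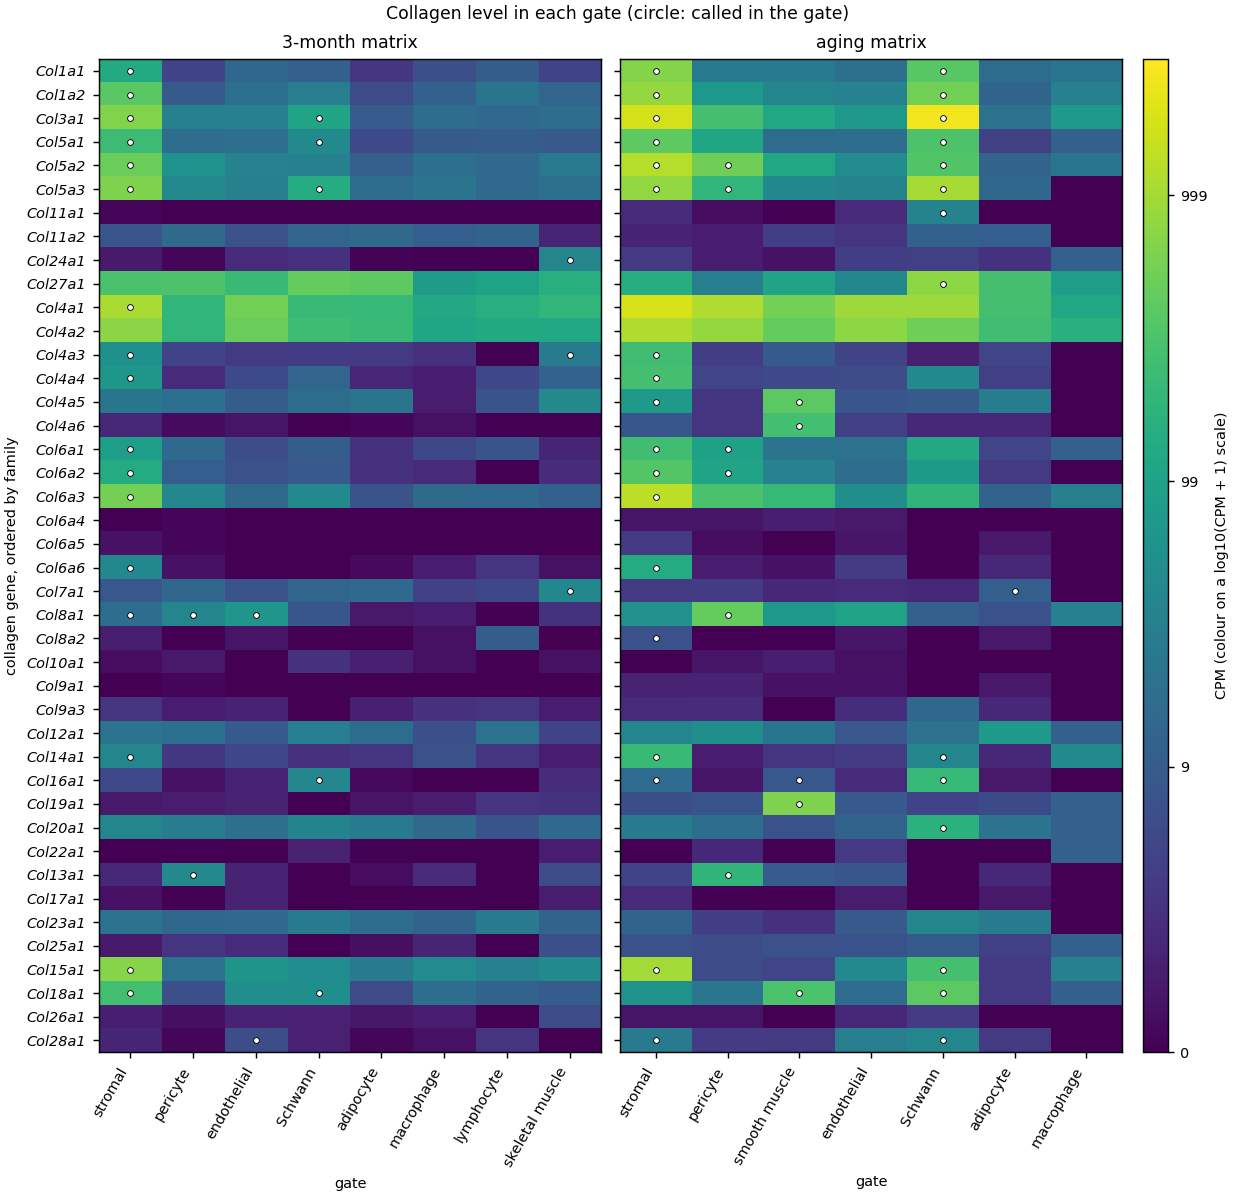
Colour gives the CPM of each collagen gene (rows, by family) in each gate (columns) on a log10(CPM + 1) scale, and a circle marks a gene called in that gate. The stromal column is filled for types I, III, V, VI and XV in both matrices, the aging Schwann column for nearly the same fibrillar genes, and Col19a1, Col4a5 and Col4a6 are high in smooth muscle.

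Within type IV, the 3 pairs had 3 different cell type patterns. Col4a1 and Col4a2, the chains of the common basement membrane trimer, were found in every gate. In the aging matrix Col4a1 was 1850.2 CPM (interval 1787 to 1915) in stromal nuclei, 1139 in pericytes, 923 in endothelium, 921 in Schwann nuclei, 569 in smooth muscle, 284 in adipocytes and 118 in macrophages. Col4a2 followed it, with 1143, 854, 777, 506, 454, 254 and 160.5 CPM in the same order. The stromal intervals lay above those of all other gates for both chains. The 3-month stromal Col4a1 level of 1100.2 CPM was 5.59 times the median of the other gates, so the gene was called, and the full filter stated in the methods took the fold to 3.02 and suffix 2 alone to 3.03.

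Col4a3 and Col4a4, chains of the trimer best known from kidney and lung basement membranes, were largely stromal. In aging stromal nuclei Col4a3 was 259 CPM (235 to 284) and Col4a4 285 CPM (260.1 to 311), 53.8 and 51.4 times the median of the other gates. By library, stromal Col4a3 was 354, 237 and 129 CPM in suffixes 1, 2 and 3, and Col4a4 361, 339 and 134 CPM. Both were lowest in suffix 3. Stromal Col4a3 there still lay far above the 0 to 19.3 CPM of Col4a3 in all non-stromal library values. Stromal Col4a3 of the 3-month matrix was 54.7 CPM (49.0 to 60.8), with 87.0 and 37.3 CPM in suffixes 1 and 2, and Col4a4 68.7 CPM (62.3 to 75.4), with 101 and 51.5 CPM.

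The pair did part in other gates. In aging Schwann nuclei Col4a4 was 43.5 CPM (34.8 to 53.7) while Col4a3 was 1.01 CPM (0.122 to 3.65). Schwann Col4a4 was not called, since it was at 0 in suffix 3. In 3-month Schwann nuclei of the shorter lists Col4a4 was 46.7 CPM (22.4 to 85.9) and Col4a3 was at 0. In skeletal muscle nuclei Col4a3 was 25.5 CPM (19.4 to 33.0), a called fold of 6.87, beside 11.4 CPM (7.48 to 16.8) for Col4a4. So the step of the 2 genes in stroma did not hold in nerve and muscle nuclei, and the full stated filter took the Col4a3 fold in muscle to 1.72.

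Col4a5 and Col4a6, whose proteins join in the smooth muscle basement membrane, were highest in smooth muscle. Aging smooth muscle nuclei held Col4a5 at 392 CPM (366 to 420.1) and Col4a6 at 273 CPM (251 to 297), with folds of 43.4 and 94.1. By suffix 1, 2 and 3, smooth muscle Col4a5 was 443, 313 and 246 CPM and Col4a6 274, 286 and 262 CPM. Outside smooth muscle the pair came apart, since Col4a5, which is also a partner of Col4a3 and Col4a4, was 71.7 CPM (59.7 to 85.5) in stromal nuclei and 28.2 CPM (20.1 to 38.6) in adipocytes, where Col4a6 was 7.46 and 1.45 CPM. Where smooth muscle gave no level, in the 3-month matrix, Col4a6 did not exceed 1.43 CPM in any gate and Col4a5 was highest in skeletal muscle at 41.8 CPM (33.8 to 51.1).

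**Figure D3:**
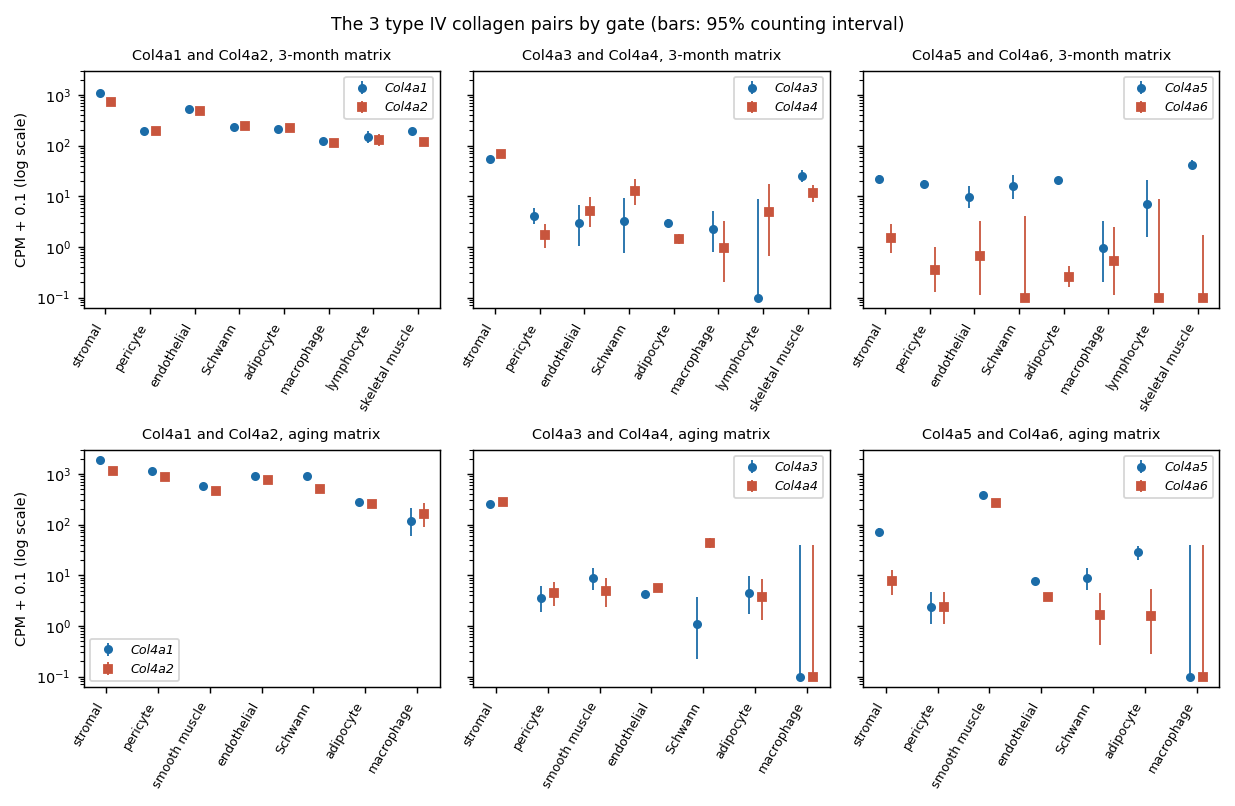
Points give the CPM plus 0.1 (log axis) of the chains of each type IV pair in each gate, for the 3-month matrix (top) and the aging matrix (bottom), with bars for the 95% counting interval. Col4a1 and Col4a2 are found in every gate and are highest in stromal nuclei, Col4a3 and Col4a4 stand out in stromal nuclei, and Col4a5 and Col4a6 stand out in aging smooth muscle, with Col4a5 alone also raised in stromal and adipocyte nuclei.

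Of the fibrillar genes, types I, III and V were called together in stromal nuclei of both matrices: 6 of 9 members in the 3-month matrix and 6 of 10 in the aging matrix, each time Col1a1, Col1a2, Col3a1, Col5a1, Col5a2 and Col5a3. Col1a1 and Col1a2 code for the chains of type I collagen, the main fibril protein. In aging stromal nuclei Col1a1 was 673 CPM (635 to 712) and Col1a2 837 CPM (794 to 881), against 15.9 and 12.3 CPM in adipocytes. Their 3-month levels were 133 CPM (124 to 143) and 384 CPM (369 to 400.1), against 2.57 and 5.37 CPM in adipocytes. Macrophages and lymphocytes, which are not known to make type I collagen, held 5.98 and 9.45 CPM of Col1a1 in that matrix, so levels of this size cannot be told apart from free RNA in the droplets.

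Col3a1, the single chain of type III collagen, was 1791 CPM (1728 to 1855) in aging stromal nuclei and higher still in aging Schwann nuclei, at 2597 CPM (2526 to 2669). By library, Schwann Col3a1 was 2849, 703 and 517 CPM in suffixes 1, 2 and 3, and stromal Col3a1 2185, 1071 and 1654 CPM. Schwann nuclei thus exceeded stromal nuclei in suffix 1, which held 790 of the 871 Schwann nuclei, and were below them in the other libraries. In 3-month stromal nuclei Col3a1 was 656 CPM (636 to 677), with 1014 and 465 CPM in suffixes 1 and 2, and in 3-month Schwann nuclei 105 CPM (85.3 to 128), or 392 CPM (313 to 486) with the shorter lists.

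Col5a1, Col5a2 and Col5a3 make type V, which is buried in fibrils and sets their width. Col5a1 and Col5a2 were strongest in aging stromal nuclei, at 417 CPM (387 to 448) and 1220.1 CPM (1169 to 1273), although the stromal fold of Col5a2 was 3.39 in suffix 3 alone. Col5a3 was highest in aging Schwann nuclei, at 1007 CPM (964 to 1053) beside 811 CPM (769.7 to 855) in stroma. Pericytes of the aging matrix also held the type V chains, with Col5a2 at 534 CPM (509.6 to 559) and Col5a3 at 196 CPM (182 to 212) called. Taken 1 library at a time, the pericyte fold of Col5a2 was 3.55 in suffix 2 and 1.40 in suffix 3, and that of Col5a3 was 2.21 and 1.20 in suffixes 1 and 3, all below 4. In 3-month stroma Col5a1 was 239 CPM (227 to 251), Col5a2 502 CPM (485 to 519.9) and Col5a3 647 CPM (627 to 667). The 3-month Schwann gate called Col5a1 at 43.5 CPM (31.2 to 59.0), or 149 CPM (102 to 211) with the shorter lists, and Col5a3 at 143 CPM (120 to 169), or 546 CPM (452 to 655). Their Schwann folds of 4.26 and 6.71 were both under 4 in suffix 1 alone. In the 3-month pericyte gate Col5a2 was 60.8 CPM and not called, and with the shorter lists it was 338 CPM (302 to 376) with a fold of 13.1.

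Schwann nuclei, the glia that wrap nerve fibres, carried 8 of the 10 fibrillar genes called in the aging matrix: types I, III and V and also Col11a1 and Col27a1. Col1a1 was 374 CPM (348 to 402) there and Col1a2 550.0 CPM (518 to 584). Col5a1 was 322 CPM (297 to 348) and Col5a2 345 CPM (319.8 to 372). Col11a1, a minor fibril chain best known from cartilage, was 34.4 CPM (26.7 to 43.6), with 26.2, 79.9 and 122 CPM in suffixes 1, 2 and 3, and did not exceed 1.72 CPM in any other gate. Its partner Col11a2 was 11.1 CPM (6.97 to 16.8) there and 10.1 CPM (5.54 to 17.0) in adipocytes. Rxrb ends 1038 bases upstream of Col11a2 on the same strand and was 14.2 and 34.8 CPM in these gates. Its part in the Col11a2 reads was not tested. In suffix 3 alone, with 32 Schwann nuclei, the folds of Col1a1, Col1a2, Col3a1, Col5a1 and Col5a3 were 2.17, 1.90, 3.28, 3.29 and 2.29, so these calls rested on the other libraries. Schwann Col5a2 had a pooled fold of 4.20 but 2.81, 3.45 and 1.87 in suffixes 1, 2 and 3 alone.

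Col27a1, a fibrillar collagen with short helix breaks, had an order of its own. It was 772 CPM (734 to 812) in aging Schwann nuclei and 279 CPM (252 to 309) in aging adipocytes, then 147 in stroma, 105 in smooth muscle, 85.6 in macrophages, 40.8 in endothelium and 30.4 in pericytes. Adipocytes of the 3-month matrix held 416 CPM (410 to 422), with 400.3 and 465 CPM in suffixes 1 and 2, stroma 303, endothelium 219, skeletal muscle 152 and macrophages 80.2 CPM. Schwann nuclei were highest there too, at 453 CPM (411 to 498), or 943 CPM (817 to 1082) with the shorter lists. Its adipocyte fold was 1.90 there, and 4.51, a call, once nuclei rich in adipocyte markers were left out of the other gates.

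Type VI collagen was stromal with a second level in pericytes. All 4 beaded filament genes that reached 20 UMIs in the 3-month matrix, and 4 of 6 in the aging matrix, were called in stromal nuclei. Col6a1, Col6a2 and Col6a3, the chains of the common trimer, reached 258 CPM (234 to 283), 354 CPM (326 to 383) and, for Col6a3, 1358 CPM (1304 to 1414) in aging stroma. Aging pericytes held 97.7, 107 and 296 CPM, and Col6a1 and Col6a2 were called there. The pericyte call of Col6a2, with a fold of 4.17, was lost in suffix 1 alone (2.77) and suffix 2 alone (3.42). Stroma of the 3-month matrix held Col6a1 at 86.3 CPM (79.2 to 93.9), Col6a2 at 137 CPM (128 to 147) and Col6a3 at 561 CPM (543 to 580.3). In 3-month pericytes of the shorter lists all 3 were called, at 86.4, 52.9 and 196 CPM.

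Col6a6 and Col6a5 code for chains that can take the place of Col6a3. Col6a6 was 137 CPM (120.3 to 156) in aging stroma and at most 3.02 CPM in the other gates, with 189, 138 and 58.0 CPM by suffix. In 3-month stroma it was 40.5 CPM (35.7 to 45.8), from 104 CPM in suffix 1 and 6.59 CPM in suffix 2. Col6a5 was 2.87 CPM (0.932 to 6.70) in aging stroma, and Col6a4 stayed under 1 CPM in every gate.

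Vascular wall cells were set apart by Col13a1, Col8a1 and Col19a1. Col13a1, a transmembrane collagen of cell adhesion sites, was 188 CPM (174 to 204) in aging pericytes, with 199.9, 233 and 119 CPM in suffixes 1, 2 and 3, against 9.09 in smooth muscle, 7.58 in endothelium and 4.02 in stroma. In the 3-month pericyte gate it was 41.9 CPM (37.6 to 46.6), with 16.1 CPM in suffix 1 and 281 CPM in suffix 2, or 237 CPM (207 to 269) with the shorter lists. Adipocyte markers summed to 6575 CPM in the pericyte gate of suffix 1 and 4536 CPM in that of suffix 2, and their part in the low value was not tested.

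Col8a1, a short network collagen of vessel walls, was 448 CPM (426 to 471) in aging pericytes, with 418, 599.9 and 395 CPM by suffix, followed by endothelium at 99.5, smooth muscle at 69.4 and stroma at 55.7 CPM. Smooth muscle Col8a1 varied with the library, at 29.3, 119.8 and 194 CPM in suffixes 1, 2 and 3. In the 3-month matrix it was 63.3 CPM (52.0 to 76.2) in endothelium, with 2.97 CPM in suffix 1 and 101 CPM in suffix 2. The endothelial fold was 1.40 in suffix 1 alone, and the call was also lost without nuclei rich in adipocyte markers. Col8a1 was also called in the 3-month pericyte gate, at 37.1 CPM (33.1 to 41.6), or 207 CPM (179.9 to 238) with the shorter lists. In 3-month stroma it was called at 17.3 CPM (14.2 to 20.9), where the fold of 5.72 fell to 2.27 in suffix 2 alone. Its partner Col8a2 was called in aging stroma at 6.31 CPM (3.15 to 11.3), on few UMIs, and the fold of 7.31 fell to 2.26 when 5 CPM was added in place of 1.

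Col19a1, a fibril-associated collagen of basement membrane zones, was called in a single gate. It was 639 CPM (605 to 674) in aging smooth muscle, with 664, 645 and 533 CPM in suffixes 1, 2 and 3, and 4.04 to 10.7 CPM in every other gate. The fold was 87.2. Without smooth muscle, in the 3-month matrix, it did not exceed 2.36 CPM.

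The remaining fibril-associated genes were split between stroma and nerve. Col14a1, which binds fibril surfaces, was 226 CPM (204 to 249) in aging stroma, with 372, 98.9 and 85.2 CPM by suffix, and 38.6 CPM (33.9 to 43.8) in 3-month stroma. Aging Schwann nuclei called it at 38.9 CPM (30.7 to 48.6). Col16a1 was 213 CPM (193 to 235) in aging Schwann nuclei, with 221, 152 and 162 CPM by suffix, against 15.5 CPM in stroma and 8.13 CPM in smooth muscle. Its 3-month Schwann level was 40.3 CPM (28.5 to 55.3), or 159 CPM (109.9 to 222) with the shorter lists. The smooth muscle call of Col16a1 rested on a fold of 4.13 and was lost in suffix 1 alone (1.49), in suffix 3 alone (1.11) and, for too few UMIs, in suffix 2 alone, and its stromal call (7.46) in the same libraries (2.27 and 2.68).

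Col20a1 was 164 CPM (147 to 183) in aging Schwann nuclei, with 179, 55.9 and 40.6 CPM by suffix, and 6.22 to 27.0 CPM elsewhere, and its fold was 2.99 and 2.81 in suffixes 2 and 3 alone. Arfgap1 lies 4009 bases upstream of Col20a1 on the same strand. Arfgap1 was 36.9 CPM in aging Schwann nuclei and 63.7 CPM in aging stroma, where Col20a1 was 164 and 27.0 CPM. In the aging gates other than Schwann both genes were highest in stroma. In the 3-month matrix Arfgap1 was higher in stroma than in the Schwann gate, at 98.7 and 55.1 CPM. Col20a1 was nearly level in these gates, at 38.9 and 36.1 CPM, and this Schwann gate held much adipocyte RNA. The part of Arfgap1 in the Col20a1 reads was not tested. Col12a1, a large collagen on fibril surfaces, was called in no gate of either matrix. It was highest in aging adipocytes at 76.0 CPM (62.2 to 92.0), with 89.0 CPM in suffix 1 and 10.9 CPM in suffix 2, above 53.2 CPM (45.8 to 61.5) in pericytes and 37.9 CPM in stroma.

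The multiplexins Col15a1 and Col18a1 code for basement membrane collagens whose ends carry heparan or chondroitin sulphate chains. Col15a1 was among the most stromal members, at 985 CPM (939 to 1033) in the aging matrix, with 941, 1172 and 932 CPM by suffix, and 696 CPM (675 to 717) in the 3-month matrix. Aging Schwann nuclei held 283 CPM (260.1 to 308) and endothelium 42.7 CPM. Col18a1, the source of endostatin, had another distribution. In the aging matrix it was 398 CPM (371 to 427) in Schwann nuclei and 307 CPM (284 to 332) in smooth muscle, and 58.5 CPM (47.7 to 71.1) in stroma, where it was not called. In the 3-month matrix it was 268 CPM (255 to 281) in stroma, but 26.4 CPM in suffix 1 and 397 CPM in suffix 2. The 3-month Schwann gate called it at 53.0 CPM (39.3 to 69.9), or 196 CPM (141 to 265) with the shorter lists. Slc19a1 overlaps Col18a1 on the opposite strand and did not exceed 11.9 CPM in any gate.

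Col28a1, a small collagen known from peripheral nerve, was called in aging Schwann nuclei at 37.9 CPM (29.8 to 47.5) and in aging stroma at 27.0 CPM (19.8 to 35.9), beside an interval of 28.2 to 31.8 CPM in endothelium. In 3-month endothelium it was called on 5.70 CPM (2.73 to 10.5), with a fold of 4.70 that was 2.85 in suffix 2 alone. That call was lost without nuclei rich in adipocyte markers. Stromal folds in single aging libraries were 3.65, 2.52 and 2.59, so the pooled stromal fold of 6.93 was not reached in any of them.

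Skeletal muscle nuclei of the 3-month matrix called Col24a1 and Col7a1 beside Col4a3. Col24a1, a minor fibrillar collagen, was 37.0 CPM (29.5 to 45.8) and at most 2.12 CPM in the other gates. Col7a1, the collagen of anchoring fibrils under epithelia, was 40.5 CPM (32.7 to 49.7), above 14.3 CPM (13.2 to 15.4) in adipocytes, and it was the only collagen called in aging adipocytes, at 10.1 CPM (5.54 to 17.0). Uqcrc1, a subunit of the mitochondrial respiratory chain, ends 3963 bases upstream of Col7a1 on the same strand. Its level was 101 CPM in aging adipocytes and 26.8 to 64.2 CPM in the other aging gates, and 96.3 and 67.4 CPM in 3-month adipocytes and muscle, and its part in the Col7a1 reads was not tested. In single aging libraries the adipocyte fold of Col7a1 was 1.94 and 19.1, neither with enough UMIs for a call.

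The members called nowhere were of 2 kinds. Col4a2 (3-month) and Col4a1 and Col4a2 (aging) were high in every gate. The others had no gate that passed the call. Among 3-month genes Col4a5, Col11a2, Col12a1, Col20a1 and Col23a1 reached 15.0 to 41.8 CPM in their highest gates, Col27a1 is described above, and Col4a6, Col8a2, Col9a3, Col10a1, Col19a1, Col25a1 and Col26a1 stayed under 10 CPM in every gate. In the aging matrix Col23a1 was highest in Schwann nuclei at 37.9 CPM (29.8 to 47.5), followed by adipocytes at 26.1 CPM, and Col9a3 in Schwann nuclei at 13.6 CPM (8.99 to 19.9). Col6a4, Col6a5, Col9a1, Col10a1, Col17a1 and Col26a1 did not exceed 3.03 CPM in any aging gate, and Col22a1, Col24a1 and Col25a1 did not exceed 10.7 CPM, the value of 1 UMI in the small macrophage gate.

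Libraries differed in stromal collagen. Collagen genes were compared where the stromal gate held at least 20 UMIs, and were counted as different where the highest library CPM, plus 1, was at least 2 times the lowest, plus 1. Between the 3-month libraries 14 of 26 collagen genes differed, against 19.9% of all genes. Of the 14, 12 were higher in suffix 1 and 2 in suffix 2, and all genes leaned the same way, with 13.3% higher in suffix 1 and 6.60% in suffix 2. Stromal Col6a3 was 939 and 359 CPM in suffixes 1 and 2, Col5a2 753 and 368 CPM, Col5a3 965 and 477 CPM, and Col6a2 229 and 88.3 CPM. The ratio of suffix 2 to suffix 1 was 0.383 (exact interval 0.358 to 0.410) for Col6a3, 0.458 (0.431 to 0.488) for Col3a1 and 0.0634 (0.0409 to 0.0947) for Col6a6. Type I, Col4a1 and Col15a1 differed less, with a ratio of 0.957 (0.830 to 1.11) for Col1a1 and 0.999 (0.919 to 1.09) for Col1a2, 1.08 (1.02 to 1.13) for Col4a1 and 1.17 (1.09 to 1.24) for Col15a1.

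Col18a1 and Col23a1 ran the other way. The stromal ratio of suffix 2 to suffix 1 was 15.0 (11.6 to 19.9) for Col18a1 and 2.84 (1.75 to 4.83) for Col23a1. Col18a1 was also higher in suffix 2 in endothelium (75.9 against 8.91 CPM), macrophages (19.0 against 2.90 CPM) and adipocytes (14.2 against 2.53 CPM). Outside stroma some stromal genes were also higher in suffix 2, but not all. The ratio of suffix 2 to suffix 1 was 0.551 (0.319 to 0.902) for adipocyte Col4a3. The interval of endothelial Col6a3, at 1.69 (0.681 to 4.76), held 1. Col15a1 was 97.0 CPM in suffix 2 adipocytes against 2.48 CPM in suffix 1, 54.6 against 2.90 CPM in macrophages and 88.8 against 19.3 CPM in endothelium, and Col1a2 was 14.3 against 2.53 CPM in adipocytes. Stromal nuclei were 10.5% of barcodes in suffix 2 and 3.56% in suffix 1, and collagens took 0.225% and 0.104% of all UMIs. The part of free stromal RNA in these non-stromal levels was not tested. Col4a1 was 535 CPM in suffix 2 adipocytes and 135 CPM in suffix 2 macrophages, against 112 and 63.7 CPM in suffix 1.

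In 3-month endothelium 8 of 15 collagen genes differed between the libraries, against 21.4% of all genes, all 8 with the higher value in suffix 2, where 9.82% of all genes were higher, against 11.5% in suffix 1. Among them were Col8a1, with a ratio of 33.9 (9.18 to 284), and Col18a1, with 8.51 (3.75 to 23.9). Col4a1 and Col4a2 differed less, with ratios of 1.36 (1.18 to 1.56) and 1.30 (1.13 to 1.51).

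Among the aging libraries 14 of 25 collagen genes differed between libraries in stroma, against 37.1% of all genes. The highest value was in suffix 1 for 8, in suffix 2 for 1 and in suffix 3 for 5, against 13.7%, 12.8% and 10.5% of all genes. Type I led the first set: stromal Col1a1 was 1124, 305 and 223 CPM in suffixes 1, 2 and 3, a spread of 5.02 times, and Col1a2 1155, 672 and 459 CPM. Col4a3, Col4a4 and Col4a5 were also highest in suffix 1 and lowest in suffix 3. Col4a1 and Col4a2 were instead highest in suffix 3, with stromal Col4a1 at 1469, 1107 and 2905 CPM and Col4a2 at 919, 720.4 and 1754 CPM. Col15a1, Col5a1 and Col5a3 differed by at most 1.26 times. In aging endothelium 19 of 40 differed, against 22.4% of all genes, 17 of them highest in suffix 1. Of all genes 10.7% differed with the highest value in suffix 1, 7.39% in suffix 2 and 4.29% in suffix 3. Suffix 1 had 2158 barcodes under 200 UMIs or 100 genes and a median of 891 UMIs, against 1635 and 1719.5 in suffixes 2 and 3. Its collagen share was 0.459% of UMIs, against 0.207% and 0.342%. Whether depth or free RNA had a part was not tested.

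**Figure D4:**
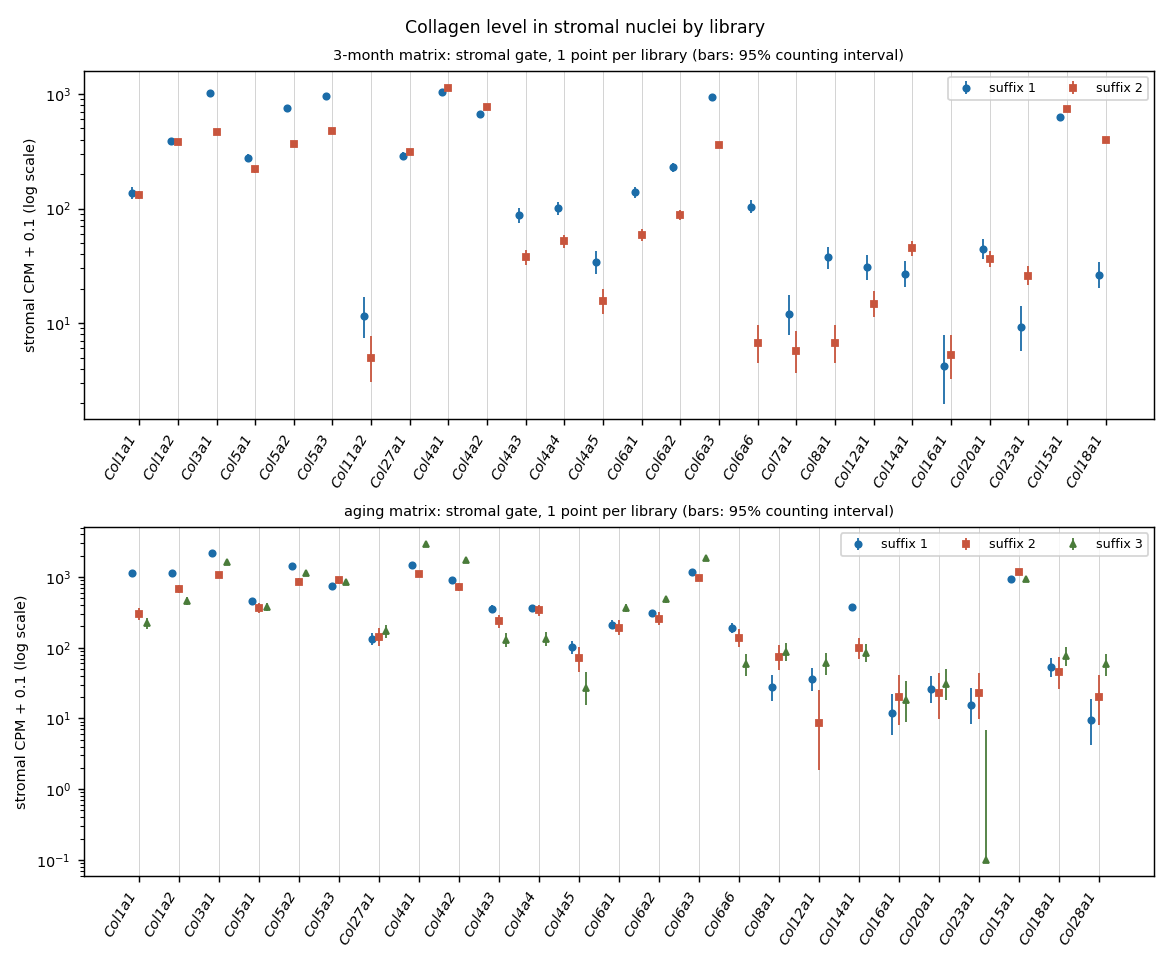
Points give the stromal CPM plus 0.1 (log axis) of each collagen gene with 20 or more stromal UMIs, 1 point per library with its 95% counting interval, for the 3-month matrix (top) and the aging matrix (bottom). In the top panel Col6a6 and Col18a1 lie farthest apart, in opposite directions, while Col1a1, Col1a2 and Col15a1 nearly coincide. In the bottom panel Col1a1 and Col14a1 are highest in suffix 1 and Col4a1 and Col4a2 in suffix 3.

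Within stroma, collagens separated nuclei that carried interstitial progenitor markers (Pi16, Dpp4, Cd55, Sema3c, Anxa3, Dact2 and Wnt2) from those that carried none. Of the 3-month stromal nuclei 92 had at least 2 of them and 1000 had none. Col14a1 was 231 CPM (190.2 to 278) in the first and 20.3 CPM (16.3 to 25.0) in the second, a ratio of 11.4 (8.53 to 15.2). Col12a1 was also higher in the first, with a ratio of 2.70 (1.64 to 4.31). Of the basement membrane genes Col4a1, Col4a2, Col15a1 and Col18a1 were lower in the progenitor set, with a ratio of 0.463 (0.408 to 0.524) for Col4a1, 0.523 (0.451 to 0.603) for Col4a2, 0.322 (0.267 to 0.386) for Col15a1 and 0.246 (0.167 to 0.349) for Col18a1. The intervals of Col4a3, at 0.730 (0.438 to 1.15), Col4a4, at 0.870 (0.564 to 1.29), and Col4a5, at 1.13 (0.543 to 2.12), held 1. Col6a2, Col6a3 and Col5a3 were lower as well, with ratios of 0.285, 0.446 and 0.439. Of the type I chains, Col1a1 had a ratio of 1.01 (0.771 to 1.31) and Col1a2 one of 0.708 (0.590 to 0.843).

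The same ratios could be taken within each 3-month library. For Col14a1 they were 32.6 (16.9 to 68.1) and 8.07 (5.75 to 11.3) in suffixes 1 and 2, and for Col12a1 2.18 (1.02 to 4.27) and 3.44 (1.67 to 6.70). For Col15a1 they were 0.287 and 0.339, for Col4a1 0.542 and 0.420, and for Col6a3 0.450 and 0.449. Col18a1 was lower in suffix 2 alone, at 0.214 (0.140 to 0.312), and its interval held 1 in suffix 1, at 0.972 (0.302 to 2.43). So did that of Col1a2 in suffix 1, at 0.915 (0.695 to 1.19), against 0.592 (0.461 to 0.751) in suffix 2. Of the aging stromal nuclei 30 had 2 or more progenitor markers and 519 had none, too few for values by library. Pooled ratios there were 4.44 (3.38 to 5.78) for Col14a1, 0.255 (0.190 to 0.336) for Col4a1 and 0.327 (0.228 to 0.455) for Col15a1. Col1a1, at 2.60 (2.13 to 3.15), was higher in the progenitor set of this matrix. Suffix 1, the library with the highest stromal Col1a1, gave 17 of the 30 progenitor nuclei and 270 of the 519 with no marker. The part of library make-up or of depth in this ratio was not tested.

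**Figure D5:**
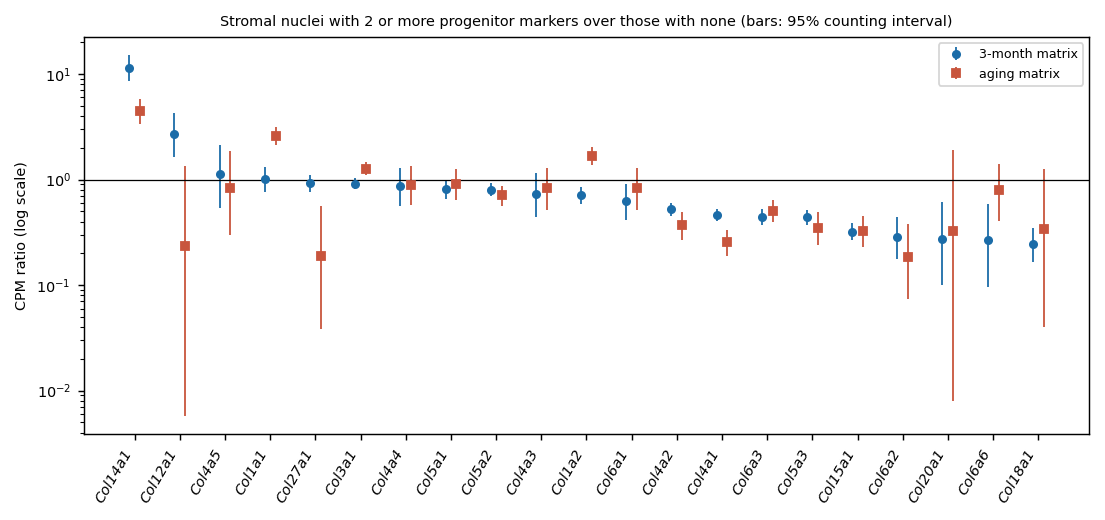
Points give the ratio of CPM (log axis) in stromal nuclei with 2 or more progenitor markers to that in stromal nuclei with none, for collagen genes with a ratio above 0 in both matrices, with 95% counting intervals. Col14a1 lies above 1 in both matrices, and Col4a1, Col4a2, Col5a3, Col6a3, Col6a2 and Col15a1 lie below 1 in both.

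Endothelial nuclei were likewise split by arterial and venous markers. In the aging matrix Col8a1 was 217 CPM (205 to 229) in 2224 arterial nuclei, 165 CPM (150.3 to 181) in 945 venous nuclei and 53.6 CPM (49.7 to 57.8) in 8460 nuclei with no subset marker. The arterial ratio to nuclei with no subset marker was 1.84, 5.44 and 4.86 in suffixes 1, 2 and 3, and the venous ratio 1.55, 3.14 and 5.17. Arterial and venous intervals overlapped in suffix 1 (1.44 to 2.36 and 1.16 to 2.07) and suffix 3 (4.04 to 5.88 and 4.19 to 6.39). Only in suffix 2 was the arterial interval the higher. In the 3-month matrix Col8a1 was 189 CPM (147 to 239) in 70 arterial nuclei. It was 6.61 CPM (0.167 to 36.8) in 37 venous nuclei, from 1 UMI. Col15a1 was highest in venous nuclei, at 169 CPM (154 to 186) against 32.0 CPM (27.6 to 37.0) in arterial nuclei of the aging matrix, and its venous ratio to nuclei with no subset marker was 4.31, 4.98 and 8.89 by suffix. The arterial ratio was 3.55 (2.11 to 6.18) in suffix 1, where the venous interval of 2.50 to 7.66 overlapped it, and 1.34 and 0.837 in suffixes 2 and 3. In suffix 2 of the 3-month matrix the arterial ratio was 2.34 (1.19 to 4.67). Arterial and venous nuclei were deeper, with a median of 1977.5 and 2166 UMIs against 1427. Stromal collagens rose in venous nuclei too, and in arterial nuclei of suffix 1. In suffix 1 the aging venous ratios of Col5a2, Col5a3 and Col6a3 were 6.65, 6.39 and 5.54, above the 4.31 of Col15a1. They were 4.00, 1.39 and 1.64 in suffix 2, and 1.66, 2.63 and 1.69 in suffix 3. The arterial ratios of Col5a2, Col5a3 and Col6a3 were 5.94, 4.85 and 7.16 in suffix 1. In suffix 2 they were 3.49, 1.12 and 1.16, and in suffix 3 1.32, 1.48 and 1.16. Col13a1, highest in aging pericytes, had venous ratios of 4.31, 5.32 and 3.65 and arterial ratios of 8.43, 1.20 and 1.88 by suffix. The venous list also held Tll1, a gene high in aging stroma (below). The part of stromal or pericyte RNA in these levels was not tested.

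The enzymes, carriers and receptors that serve collagens were described from fixed lists, by the same call. Of 13 hydroxylase and glycosylation genes, which modify the chains, 3 were called in 3-month stroma and 1 of 14 in aging stroma, the latter near the 4.79% of all genes called there (3-month stroma 5.13%). Colgalt2, a collagen galactosyltransferase, was 45.5 CPM (40.3 to 51.0) in 3-month stroma with a fold of 24.7, and P3h3, a prolyl hydroxylase, 28.4 CPM (24.4 to 32.9) with a fold of 7.99. In aging stroma Colgalt2 had a fold of 15.9 but was not called, and Plod2, a lysyl hydroxylase, was called at 146 CPM (129 to 165) with a fold of 4.42. Of 9 folding and export genes 3 and 2 were called in stroma, led by Creb3l1, a transcription factor of secretory cells, at 42.3 CPM (37.3 to 47.7) and 109 CPM (94.1 to 126). Next in fold were Fkbp10, a procollagen chaperone, at 22.4 CPM (18.9 to 26.4) in 3-month stroma, and Sec24d, a coat protein of export vesicles, at 456 CPM (425 to 489) in aging stroma.

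Removal of the propeptides, the step that lets fibrils form, had the largest share, with 6 of 8 genes called in the stroma of each matrix. Adamts14, a procollagen protease, was 37.0 CPM (32.4 to 42.1) in 3-month stroma, with a fold of 18.1, and Tll1, a protease of the tolloid family, was 99.3 CPM (85.0 to 115) in aging stroma, with a fold of 23.2. The enhancers of this cleavage, Pcolce and Pcolce2, each had a fold of 14.6, in the 3-month and the aging matrix. Of 5 crosslinking enzymes 3 were called in the stroma of each matrix, among them Loxl2 at 35.6 CPM (31.1 to 40.6) and 62.6 CPM (51.4 to 75.5). Loxl1 had a fold of 7.64 in 3-month stroma and Lox one of 10.2 in aging stroma. Of 9 receptors 3 were called in each, led by Ddr2, a receptor kinase for fibrillar collagen, at 312 CPM (298 to 326) with a fold of 26.8 and at 803 CPM (761 to 846) with a fold of 39.2. Behind it stood Mrc2, an uptake receptor for collagen, with a fold of 20.5 in 3-month stroma, and Itga11, an integrin chain, with 37.6 in aging stroma. Of the collagen-cleaving proteases and their inhibitors 3 of 8 and 5 of 7 were called, with Mmp2 at 97.4 CPM (89.9 to 105) and 130.3 CPM (114 to 148). Mmp14, which activates Mmp2, had the highest 3-month fold of this list, at 98.2 CPM (90.6 to 106), and Timp1, an inhibitor, a fold of 8.46 in aging stroma on 7.46 CPM (3.97 to 12.8).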

How the data were processed

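Single-nuclei RNA sequencing was carried out by the authors on sorted nuclei of iBAT with a 3′ droplet kit. The matrices deposited by the authors give unnormalized counts of UMIs for every gene in every nucleus. They were made with Cell Ranger 6.1.2 on mm10, and Seurat 4.1.0 is also named in the submitters' processing notes. The annotation release and any equalising of depth between libraries are not given in the sources used here. The 2 deposited matrices hold 116053743 and 54656055 UMIs.

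Nuclei with at least 200 UMIs and 100 genes were kept. The upper limits of the filter stated in the methods, 2000 UMIs and 3000 genes, were tried as an alternative. No doublet caller was run. Nuclei without a lead of 2 markers among the lists other than the adipocyte list did not pass those gates. Adipocyte markers did not keep a nucleus out of another gate, so nuclei rich in them stayed there. Counts were summed over the nuclei of each gate and given as CPM with exact Poisson intervals, and ratios with exact conditional binomial intervals. With 1 library per condition and no label from suffix to sample, no test was made and genes were named by fixed folds, tried on simulated counts. Intervals cover counting error only. Named with values were each collagen called in a gate, its partners in a trimer and the 2 pathway genes of highest stromal fold per list. The members, marker lists and pathway lists were chosen with earlier results of these data known. The computing was done in Python 3.11.15 with scipy 1.17.1 for the intervals, pandas 2.3.3, matplotlib 3.10.9 and numpy 2.4.6. Protein sequences were not used here.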

Additional observations from a re-analysis of the deposited data

How the results depend on the processing

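Of 175 counts recomputed under alternatives 128 stayed within 1.5 times, among them all stromal counts of called genes. Of 838 folds of called genes 753 still passed the call, 85 were over 1 without passing and 0 were under 1. The call already asked for a fold over 1 in each library with enough nuclei, so single libraries could give none under 1. Adding 5 CPM cannot take a fold below 1, and a called fold always passes a limit of 2. The 128 include gates with 0 called in both runs, such as 3-month lymphocytes. A count could also stay while its genes changed. Under the full filter aging adipocytes called 1 gene, which was not Col7a1. The counts that moved are these. In the 3-month Schwann gate (5 called) 3 were called with 2 markers, with 5 CPM added and in suffix 1 alone, 8 with 4 markers, 9 at a fold of 2 and without adipocyte-rich nuclei, and 10 with the shorter lists. In the 3-month pericyte gate (2 called) 10 were called with 4 markers and with the shorter lists, 7 at a fold of 2, 5 under the full stated filter, 8 in suffix 2 alone and 11 without adipocyte-rich nuclei. In 3-month endothelium (2 called) 6 were called at a fold of 2. In that gate 1 was called with 4 markers, with 5 CPM added, under the full filter, in either suffix alone and without adipocyte-rich nuclei. In suffix 1 alone and without adipocyte-rich nuclei that 1 gene was neither Col8a1 nor Col28a1. In skeletal muscle (3 called) 6 were called with 4 markers and without adipocyte-rich nuclei, 1 with 5 CPM added, 8 at a fold of 2 and 0 under the full filter. In 3-month adipocytes (0 called) 1 was called under the full filter and without adipocyte-rich nuclei, and in 3-month macrophages (0 called) 1 at a fold of 2. With 4 markers 9 stromal collagens differed between the 3-month libraries, against 14.

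In the aging matrix 5 were called in Schwann nuclei of suffix 3 alone, against 14, and 3 in pericytes of suffix 1 alone, against 6. In adipocytes (1 called) 2 were called with 2 markers and with matrix proteins among the stromal markers, 3 with 4 markers, with the shorter lists and without adipocyte-rich nuclei, 0 with 5 CPM added, 6 at a fold of 2 and 4 without the deepest nuclei. In endothelium (0 called) 2 were called at a fold of 2, 1 under the full filter, with the shorter lists, without adipocyte-rich nuclei and without the deepest nuclei, and 3, 2 and 1 in suffixes 1, 2 and 3 alone. The causes of these changes were not tested. The shorter lists were chosen after seeing the data. No paired analysis was possible because each condition is 1 library and the labels tie no suffix to a sample. The full filter left too few Schwann nuclei in the 3-month matrix for a value.

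Levels near that of 1 UMI, in the aging macrophage gate above all, carry wide intervals, and a gene at 0 there was not detectable at this depth. Libraries differed in depth, and no free RNA was subtracted. Genotype and age could not be compared.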
